A study of Danio rerio with 8 samples.

Results

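The pigment cell genes aox5, pnp4b, oca2 and mlpha were examined in zebrafish embryos. They were taken by gene symbol from the deposited table of changed genes, which holds 1293 genes, and all 4 were found there. The samples were 8 pools of whole zebrafish (Danio rerio) embryos at 53 hours post fertilisation (hpf), 4 from wild-type embryos and 4 from iqgap1-/- embryos that had been chosen because they showed hemorrhage. Each pool held 20 embryos by the design text of the series, whereas the extraction protocol in the labels speaks of single larvae, and the difference was not resolved. The labels do not describe the iqgap1 allele or its breeding, nor whether the wild-type embryos were siblings of the mutants. Since every mutant pool was also a hemorrhage pool, the effect of genotype and that of hemorrhage cannot be told apart.

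Zebrafish embryos carry 3 kinds of pigment cell, all derived from the neural crest. Melanophores make black melanin in organelles called melanosomes, xanthophores hold yellow pteridines and carotenoids, and iridophores reflect light from stacked purine crystals. By the stage sampled all 3 kinds are present in the skin, and melanin is also made by the retinal pigment epithelium of the eye. In whole-embryo RNA, fewer cells of a type and less RNA per cell cannot be told apart.

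Every listed gene had been selected by the authors for a difference between these same groups, with a deposited adjusted p of 0.04997 or lower. No listed gene had a deposited log2 fold change smaller in size than 0.5856. The tests below therefore describe genes already chosen for differing, and genes with smaller changes would not be listed. The table's values were RSEM expected counts, and they summed to between 354272 and 552331 per library over the listed genes, a partial total and not their depth. They are given below as normalized counts, placed on the scale of the authors' fold changes. The iqgap1 transcript was lower in all 4 mutant pools, at 1057 ± 153 normalized counts against 2157 ± 48.5 for wild type (SD, n = 4 each). The labels do not say whether the pools came from separate crosses, so p-values measure the spread between these pools.

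The 4 pigment cell genes did not move together. The xanthophore gene aox5 rose 1.92-fold in the mutants, the iridophore gene pnp4b fell 3.54-fold, and the melanophore gene oca2 fell 1.51-fold. The second melanophore gene, mlpha, had a 1.75-fold higher mean in the mutants and did not pass the test used here. Its adjustment counted genes outside the table as not significant, which can raise an adjusted p but not lower it. Thus edgeR's quasi-likelihood test called 3 of the 4 (adjusted p under 0.05), with 1 higher and 2 lower. Of all 1126 listed genes tested, 66.8% were called, 37.5% as higher and 29.3% as lower, so the share among the 4 is near that of the table. On the scale used, the mutant pools overlapped the wild-type pools in none of the 4, which was also true of 90.7% of the genes tested.

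**Figure D1:**
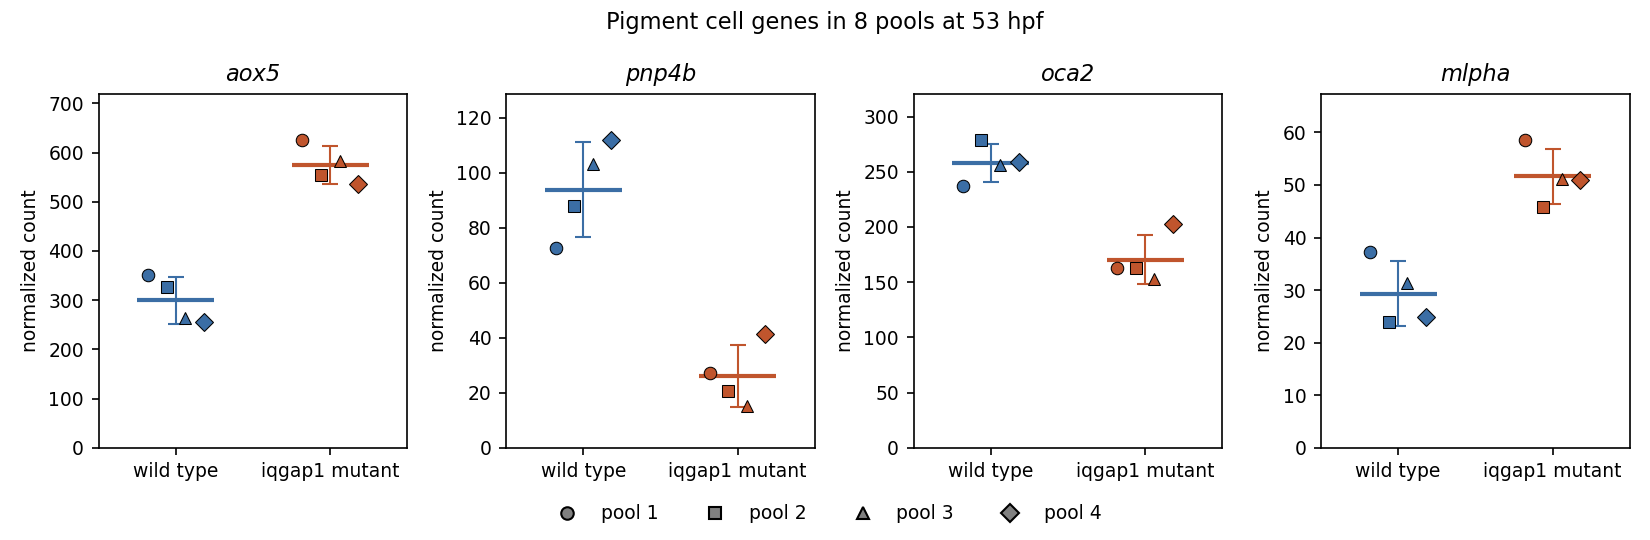
Normalized counts (y axis, starting at 0) of aox5, pnp4b, oca2 and mlpha in 4 wild-type and 4 iqgap1 mutant pools. Points are pools, with 1 marker shape per pool number, horizontal bars are group means and vertical bars are SD. Mutant pools lie above the wild-type pools for aox5 and mlpha and below them for pnp4b and oca2 on this scale.

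The aox5 gene (ENSDARG00000071475) encodes an aldehyde oxidase and is widely used in zebrafish as a marker of xanthophores. Wild-type pools 1 to 4 had 352, 327, 263 and 256 normalized counts, and mutant pools 1 to 4 had 626, 555, 582 and 537. Every mutant pool thus exceeded the highest wild-type pool, and among the wild-type pools 1 and 2 stood above 3 and 4. The mean rose from 300 ± 47.2 to 575 ± 38.7 (SD, n = 4 each), or 0.94 ± 0.13 (SE) as a log2 fold change, with an adjusted p of 0.00246 in the edgeR quasi-likelihood test. The exact permutation test over pools gave a two-sided p of 0.0286, which is the smallest that 4 pools against 4 allow. In the authors' deposited table the log2 fold change is 0.94 and the adjusted p is 2.94e-09. The scale used here was centred on the deposited fold changes, so the equal value is no independent check. The relative spread was larger in wild type, with a coefficient of variation of 15.8% against 6.73% in the mutants. The call was lost under other scalings: with RLE factors (median of ratios) computed over the listed genes the log2 fold change was 0.44 (edgeR, adjusted p = 0.43), and with TMM it was 0.56 (adjusted p = 0.107). Both take most genes as unchanged, and a table of selected genes has no such majority. The lost call therefore cannot decide whether aox5 rose. Its expected counts included values that were not whole numbers (378.15 in wild-type pool 1), as RSEM gives when reads are shared with other genes, so part of its count rests on that assignment.

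The pnp4b gene (ENSDARG00000029230) encodes a purine nucleoside phosphorylase, an enzyme that handles the purines from which iridophores build their crystals, and its paralog pnp4a is a standard zebrafish iridophore marker. Wild-type pools 1 to 4 had 72.6, 87.8, 103 and 112 normalized counts. Mutant pools 1 to 4 had 27.3, 20.8, 15.3 and 41.3. The highest mutant pool therefore lay well under the lowest wild-type pool, and mutant pool 4 was the highest of its group. The mean fell from 93.9 ± 17.4 to 26.2 ± 11.2 (SD, n = 4 each), or -1.82 ± 0.27 (SE) as a log2 fold change (edgeR, adjusted p = 0.00391). The exact permutation test gave a two-sided p of 0.0286, again the smallest possible. It was the largest change of the 4: of the 532 genes that the authors' deposited table lists as lower, 31.2% had a larger fall. It was also the most variable in the mutants, where the highest pool had 2.69 times the count of the lowest and the coefficient of variation was 42.8%, against 18.6% in wild type. The expected counts behind these values were small, from 12 to 39 in the mutant pools and from 78 to 122 in wild type. Leaving out each pool in turn moved the log2 fold change between -2.13 and -1.65, and the call held each time (edgeR, adjusted p between 0.0032 and 0.0211).

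The oca2 gene (ENSDARG00000061303) encodes a melanosome membrane protein that is needed for melanin to form, and its loss causes albinism in fish and mammals. Wild-type pools 1 to 4 had 237, 279, 256 and 259 normalized counts, and mutant pools 1 to 4 had 163, 163, 153 and 203. The groups did not overlap, and mutant pool 4 was the closest to wild type. The mean fell from 258 ± 17.1 to 171 ± 22.2 (SD, n = 4 each), or -0.59 ± 0.12 (SE) as a log2 fold change (edgeR, adjusted p = 0.0208). The exact permutation test gave a two-sided p of 0.0286. With RLE factors (-1.11) and TMM (-0.98) the oca2 change exceeded those of aox5 and mlpha in size, but both scalings shift every gene downward. On the authors' scale it was the smallest change of the 4. It lay close to the limit of the table, since 97.9% of the genes listed as lower in the authors' deposited table had a larger fall. The call was lost without any 1 of 5 pools: edgeR's adjusted p was 0.0685 without wild-type pool 2, 0.0552 without wild-type pool 3, 0.0623 without wild-type pool 4, 0.0879 without mutant pool 2 and 0.0847 without mutant pool 3. The log2 fold change stayed between -0.69 and -0.55 over all 8 such fits. Counting genes outside the table as not significant can raise the adjusted p-values of these fits.

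The mlpha gene (ENSDARG00000070991) encodes melanophilin, an adaptor that couples melanosomes to the myosin that carries them along actin, so that pigment can disperse through the cell. Wild-type pools 1 to 4 had 37.2, 23.9, 31.4 and 24.9 normalized counts, and mutant pools 1 to 4 had 58.6, 45.8, 51.2 and 50.9. The lowest mutant pool was above the highest wild-type pool. The means were 29.4 ± 6.21 and 51.6 ± 5.26 (SD, n = 4 each), and the log2 fold change was 0.81 ± 0.20 (SE; edgeR, adjusted p = 0.0676). DESeq2 gave an adjusted p of 0.0541 on the same counts, while the authors' deposited table gives 0.00447. The edgeR and DESeq2 adjustments counted genes outside the table as not significant, which can raise an adjusted p. The exact permutation test gave a two-sided p of 0.0286, the smallest that the design allows. With wild-type pool 1 left out, the log2 fold change was 0.94 and edgeR's adjusted p was 0.0482. It was the least abundant of the 4 in counts, with a mean of 40 expected counts per library. On the RLE scale its log2 fold change was 0.31 (edgeR, adjusted p = 1.0).

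The direction of aox5 and mlpha against oca2 and pnp4b was then examined within each pool, because a ratio of the counts of 1 library is free of any scaling between libraries. Only its change between pools is read, since the counts are not per length. The ratio of aox5 to oca2 was 1.48, 1.17, 1.03 and 0.99 in wild-type pools 1 to 4 and 3.84, 3.4, 3.79 and 2.64 in mutant pools 1 to 4. Its mean went from 1.17 ± 0.224 in wild type to 3.42 ± 0.555 in mutant pools (SD, n = 4 each). The ratio of mlpha to oca2 went from 0.115 ± 0.0317 to 0.306 ± 0.0496, although both genes act in melanosomes. The ratio of oca2 to pnp4b went from 2.81 ± 0.485 to 7.18 ± 2.23, and the groups did not overlap. The widest gap was that of aox5 to pnp4b, from 3.35 ± 1.18 to 25.1 ± 10.3. The ratio of aox5 to mlpha did not separate the groups, with 10.5 ± 2.28 in wild type and 11.2 ± 0.721 in the mutants. A ratio between a gene higher in every mutant pool and one lower in every mutant pool has to separate the groups, so only oca2 to pnp4b and aox5 to mlpha could have come out either way. The ratios were chosen after the values were seen and are given with no test.

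**Figure D2:**
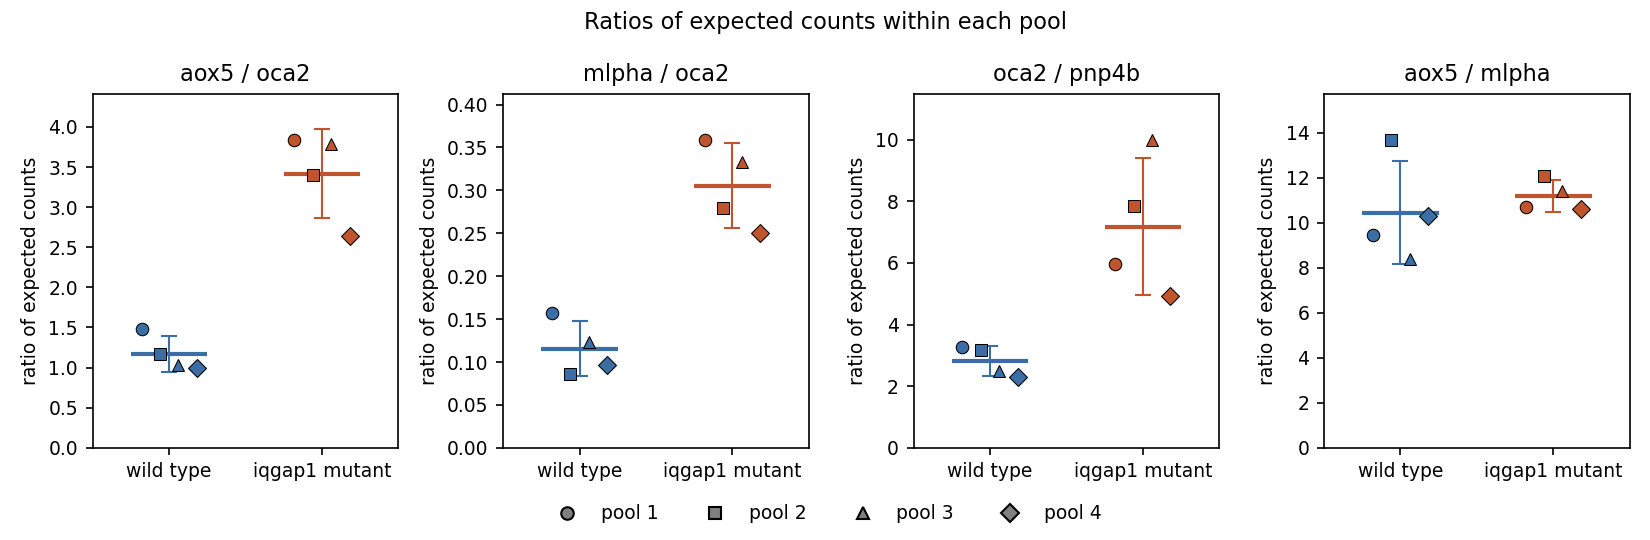
Ratios of the expected counts of 2 genes within each pool (y axes, starting at 0) for 4 wild-type and 4 iqgap1 mutant pools. Points are pools, horizontal bars are means and vertical bars are SD. The ratios aox5 to oca2, mlpha to oca2 and oca2 to pnp4b are higher in every mutant pool than in any wild-type pool, while aox5 to mlpha overlaps.

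Pools differed within the groups as well. In the mutants, pool 4 had the highest pnp4b and the highest oca2, and pool 3 the lowest of both. In wild type, pools 1 and 2 had more aox5 and less pnp4b than pools 3 and 4. Over the 8 pools, the deviations from the group mean (log2 scale) of pnp4b and oca2 had a Pearson correlation of 0.82. Those of aox5 and mlpha had 0.45, and those of aox5 and pnp4b had -0.49. The remaining pairs had -0.41 (oca2 and mlpha), -0.31 (aox5 and oca2) and -0.14 (pnp4b and mlpha). These are descriptions over 8 libraries that share their scaling factors.

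Other genes of the pigment cells were taken from lists of 113 symbols for xanthophores, iridophores, melanophores, their neural crest progenitors, purine synthesis and the sorting of melanosome-like organelles. The lists were written with earlier results of these data known. The table held 10 of the 113 symbols and not the remaining 103. Among the 103 are xdh and mlphb, which RefSeq gives as synonyms of aox5 and mlpha, and the others were not analysed here. They include standard markers such as gch2, pnp4a, mitfa, dct, tyr and pmela, none of which was listed as changed under these symbols. No values of them were analysed, so the identity of the cells behind the 4 genes could not be checked against the other defining markers. Of the 10, the test called 9, 3 higher and 6 lower, beside 66.8% of all genes tested (37.5% higher and 29.3% lower). With RLE or TMM factors 7 of the 10 were called, since aox5 and crestin were lost. The median deposited log2 fold change of the 10 was -0.64, beside 0.72 over all listed genes. No listed change lies near 0, so each median mainly shows which direction holds the majority. That was 4 higher and 6 lower among the 10, and 761 and 532 among all listed genes. None of the 17 symbols written as retinal pigment epithelium markers, 17 purine synthesis genes or 18 organelle sorting genes was in the table. Whether genes of the melanophore list, such as oca2 and kcnj13, were also read from the retinal pigment epithelium was not tested.

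The iridophore list had 4 of its 19 symbols in the table, and the other 15, the standard marker pnp4a among them, were not listed as changed. All 4 were called lower, where 29.3% of all genes tested were (41.6% with RLE factors). The list was written with earlier results of these data known and holds pnp4b, chosen beforehand, so this count is no independent evidence about the 4. Besides pnp4b these were defbl1, a beta-defensin-like gene, ponzr1, a gene also studied in zebrafish kidney development, and slc23a3, of the nucleobase and ascorbate transporter family. These 3 are marker names taken largely from adult iridophores. In whole embryos other tissues may contribute to their counts, and to those of pnp4b. Wild-type pools had 299, 312, 310 and 318 normalized counts of defbl1 and mutant pools had 190, 204, 191 and 184. The pools of each group lay close together, and the mean fell from 310 ± 8 to 192 ± 8.3 (SD, n = 4 each; log2 fold change -0.69 ± 0.09, edgeR, adjusted p = 0.0024). For ponzr1 the mean fell from 107 ± 7.64 to 59.9 ± 7 normalized counts (log2 fold change -0.83 ± 0.14, edgeR, adjusted p = 0.008). For slc23a3 it fell from 80.1 ± 11.3 to 46.1 ± 5.13 (log2 fold change -0.79 ± 0.17, edgeR, adjusted p = 0.0262). The slc23a3 call was lost without wild-type pool 3 (edgeR, adjusted p = 0.0852), wild-type pool 4 (0.0836), mutant pool 2 (0.099), mutant pool 3 (0.0886) or mutant pool 4 (0.0951). The fall of pnp4b was larger than these. Its deviations within groups followed those of ponzr1 (Pearson correlation 0.90 over 8 libraries) but not those of slc23a3 (0.21) or defbl1 (-0.21). The genes her8.2 and slc5a9, from outside the pigment lists, followed pnp4b as closely as ponzr1 did (0.91 each). Her8.2, slc5a9 and ponzr1 were the named genes, out of 436, that followed pnp4b best in these libraries, which favoured high values.

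The melanophore list had 4 of its 34 symbols in the table, 2 higher and 2 lower. Besides oca2 and mlpha these were rab27b, a small GTPase whose mammalian relative Rab27a recruits melanophilin to melanosomes, and kcnj13, a potassium channel whose mutation alters adult stripes in zebrafish. Wild-type pools 1 to 4 had 87.5, 77.8, 95.9 and 78.4 normalized counts of rab27b, and mutant pools 1 to 4 had 34.2, 43.7, 39.7 and 45.6. It fell 2.08-fold (log2 fold change -1.06 ± 0.16, edgeR, adjusted p = 0.00457). Wild-type pools had 224, 199, 189 and 216 normalized counts of kcnj13 and mutant pools had 432, 635, 532 and 599. It rose 2.65-fold (log2 fold change 1.41 ± 0.14, edgeR, adjusted p = 0.00033), and it was called higher with RLE factors as well (log2 fold change 0.89, adjusted p = 0.00163). The neural crest transcript crestin, which in zebrafish marks crest cells before and during pigment cell formation, rose from 453 ± 23.3 to 703 ± 61.5 (log2 fold change 0.63 ± 0.11, edgeR, adjusted p = 0.00753). The crestin call was lost with RLE factors (log2 fold change 0.11, adjusted p = 1.0) and with TMM (0.24, adjusted p = 1.0).

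**Figure D3:**
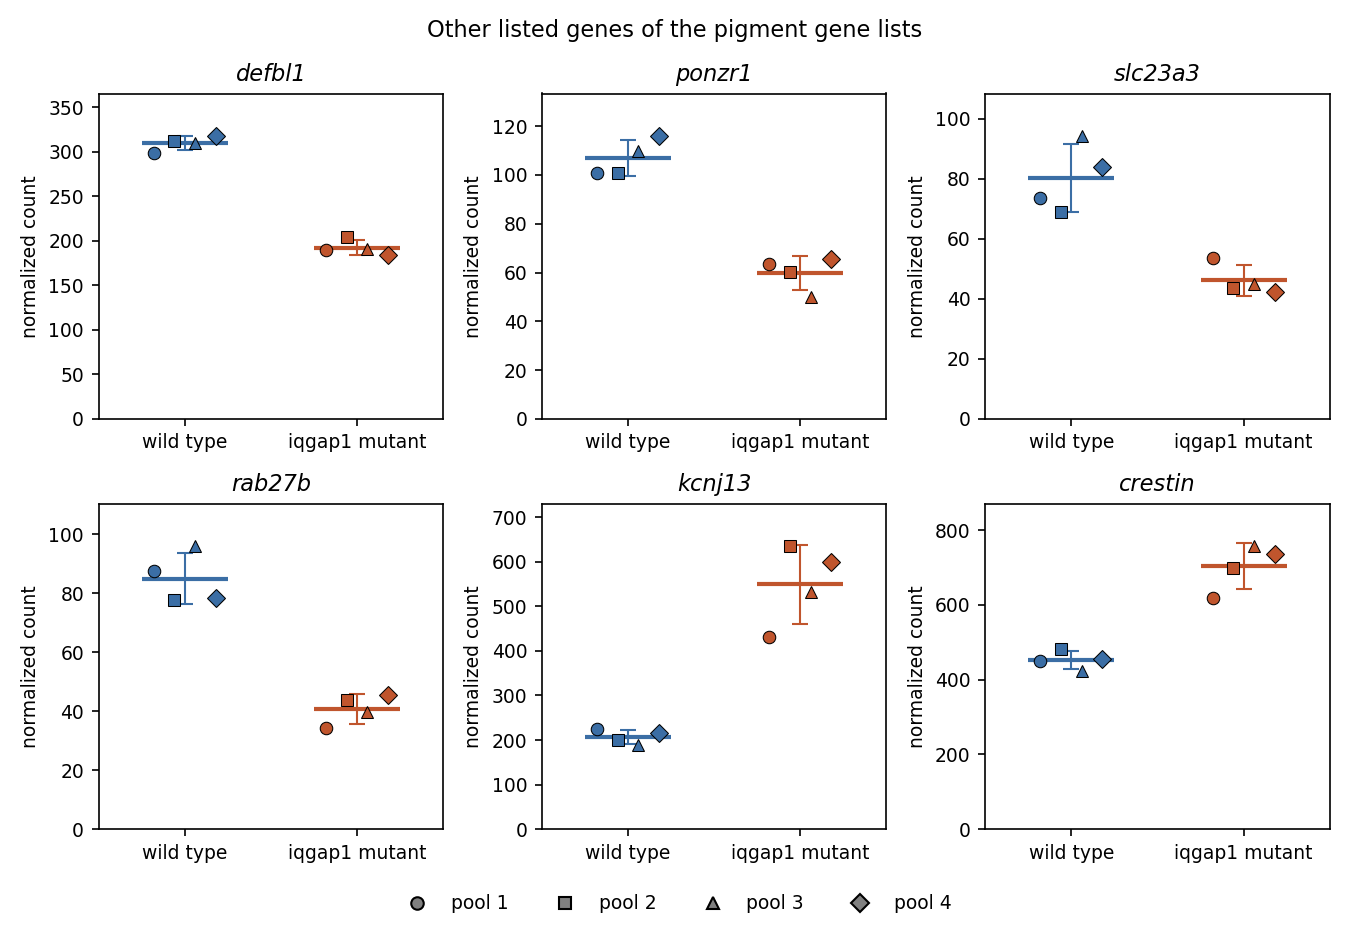
Normalized counts (y axes, starting at 0) of the other 6 listed genes of the pigment lists in 4 wild-type and 4 iqgap1 mutant pools. Points are pools, horizontal bars are means and vertical bars are SD. The 4 genes defbl1, ponzr1, slc23a3 and rab27b are lower and kcnj13 and crestin higher in every mutant pool than in any wild-type pool on this scale.

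How much these genes changed depends on where the unchanged level is set, which a table of selected genes alone cannot give. The main scale takes that level from the authors' fold changes, whose p-values were adjusted over 26889 genes. RLE and TMM take most genes as unchanged, which does not hold for such a table, so calls lost with them decide nothing. RLE factors over the listed genes shift the scale between the groups by -0.515 (log2), and TMM by -0.385, with fitted values of single genes moving by about as much. With RLE factors 113 genes were called higher (10.1% of those tested) and 465 lower (41.6%), and with TMM 14.5% were called higher and 40.3% lower, against 422 and 330 genes on the scale of the authors' fold changes. On all 3 scales pnp4b, oca2, defbl1, ponzr1, slc23a3 and rab27b were called lower and kcnj13 higher. Both shifts move every gene downward, so the lower calls were nearly bound to stay. Of these calls only that of kcnj13 was put at risk. With RLE factors pnp4b had a log2 fold change of -2.34 and oca2 of -1.11.

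**Figure D4:**
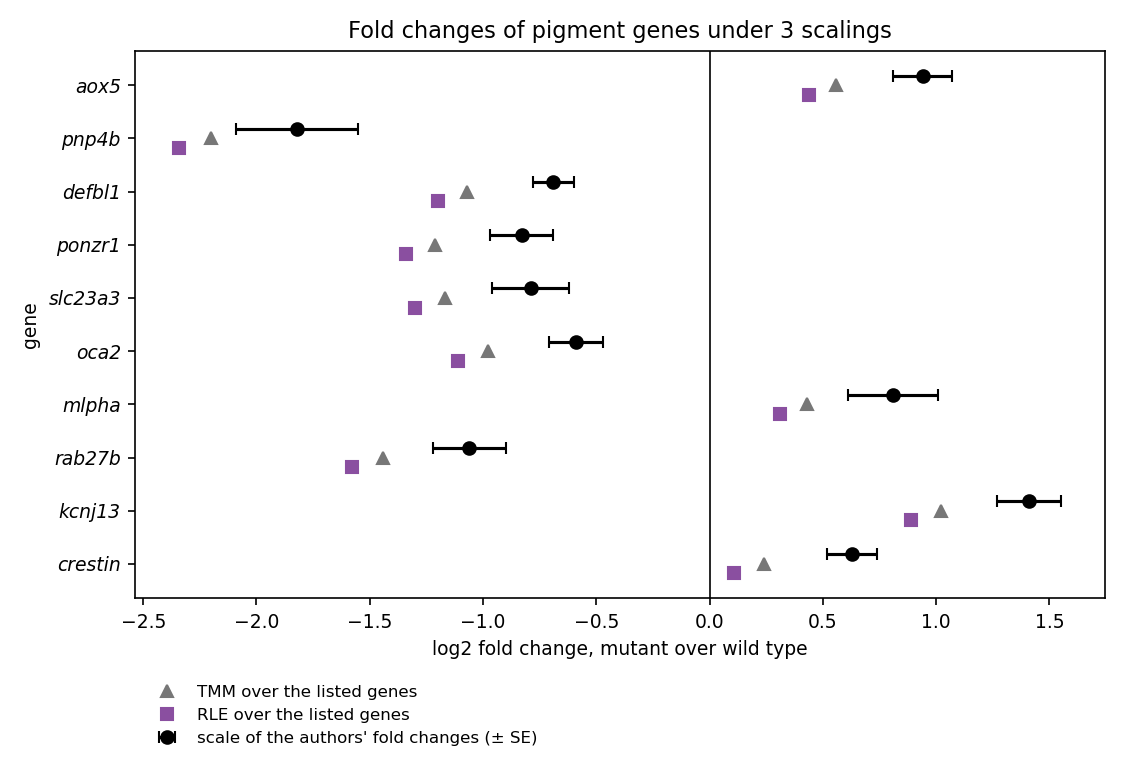
Log2 fold changes, mutant over wild type (x axis), of the 10 listed pigment genes (y axis) on the scale of the authors' fold changes (circles, with SE), with TMM factors (triangles) and with RLE factors (squares) over the listed genes. Every point stays on its side of 0, while crestin moves from 0.63 to 0.11 and aox5 from 0.94 to 0.44.

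Markers of other cell types moved between the same groups. Their lists were written with earlier results of these data known, so how many of them were in the table is not a result. All 12 erythrocyte markers examined were in the table as higher, and their summed normalized counts were 29462 to 48233 in wild-type pools and 103707 to 136312 in mutant pools. Most of each sum came from the globin genes hbae1.1, hbae3 and hbbe1.1. For klf1 and epor, mutant pool 1 (35.1 and 40.0) lay within the wild-type range (28.9 to 46.9 and 21.2 to 42.9). All 6 neutrophil markers were higher as well, with sums of 2230 to 2681 and of 4340 to 5483. The test called 10 of the erythrocyte and 6 of the neutrophil markers, but 5 and 0 with RLE factors and 8 and 3 with TMM. Of all genes tested, 37.5% were called higher and 29.3% lower. These shares were 10.1% and 41.6% with RLE factors and 14.5% and 40.3% with TMM. Of 10 macrophage markers 7 were listed, all lower, and 6 were called (7 with RLE or TMM factors), irf8 being the exception (edgeR, adjusted p = 0.207). Their sums were 20797 to 27511 in wild type and 13207 to 18755 in the mutants, nearly all of it apoeb, and without apoeb they were 397 to 522 and 196 to 236. None of these listed markers was at 0 in any library. The part of these shifts in the values of the pigment genes was not tested.

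For each of the 4 genes, the 3 named genes (mean count at least 50) whose log2 normalized counts followed it best over the 8 libraries were listed. For aox5 these were the transglutaminase-like gene tgm1l4 (Pearson correlation 0.9947), the red cell Rh glycoprotein gene rhag (0.9862) and the cytochrome P450 gene cyp2k8 (0.9859). For pnp4b they were her8.2, a hairy-related transcription factor gene (0.9862), ponzr1 (0.9824) and the sugar transporter gene slc5a9 (0.9796). The genes closest to oca2 were the zinc finger gene znf1156 (0.9754), pnp4b itself (0.9730) and her8.2 (0.9678). For mlpha they were bscl2l (0.9704), cox14 (0.9609) and the cytokine signalling inhibitor gene cish (0.9603). These correlations include the difference between the groups. Deviations from the group means, added after the values were seen, had correlations between 0.79 (oca2 with her8.2) and 0.94 (aox5 with tgm1l4) over the same 8 libraries. The genes had been picked from 436 for following the 4 genes in these libraries, so the choice itself favoured high values.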

How the data were processed

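The authors deposited a table of 1293 selected genes with log2 fold changes (mutant over wild type), the fold as a linear ratio, p-values and adjusted p-values, per the file headers. Trimmomatic, RSEM, STAR 2.7 and build danRer11 were used, per the submitters' processing notes, which give no roles. Annotation, strand setting and comparison tool: not given in the sources used here.

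Expected counts as deposited had each been multiplied by 1 of 8 factors (0.9784 to 1.0252) that cycled over the cells of a row. Division returned multiples of 0.01 for all 10152 nonzero values. Counts were rounded, scaled by median of ratios within groups (mean count at least 50), and given 1 offset between groups (-0.231, log2) so that fitted log2 fold changes centred on the deposited ones; 95.7% of 648 genes lay within 0.01.

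Tests used edgeR 4.0.16 (R 4.3.3; filterByExpr, minimum count 10; 167 genes removed), with Benjamini-Hochberg adjustment over 26889 genes, those outside the table counted as not significant (p of 1). Unlisted genes with small p-values but small changes may exist, so this adjustment can raise adjusted p-values but not lower them. Exact permutation tests over pools used log2(normalized count + 1). Alternatives were DESeq2 1.42.0, RLE, TMM, no filter, a replicate block, uncorrected values, adjustment over listed genes and each pool left out. The steps were tested on simulated data. Named genes were the 4 genes, listed members of the pigment lists, 3 genes most alike each, and iqgap1. All 4 symbols matched RefSeq (GRCz12tu), used for names and neighbours only. The genes and lists were chosen with earlier results of these data known.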

Additional observations from a re-analysis of the deposited data

Results flagged for a closer look

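The highest and lowest pool of each group was compared with the others by Dixon's test for 20 named genes, 40 comparisons in all, where chance gives about 2. It marked 1: znf1156, the gene closest to oca2 in pattern, had 113 normalized counts in wild-type pool 1, below the 139 to 144 of the other wild-type pools. No pool of aox5, pnp4b, oca2 or mlpha was marked.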

How the results depend on the processing

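The 4 pigment cell genes kept their direction under every alternative run, and pnp4b kept its call in each. The call of aox5 was lost with RLE (0.44 on the log2 scale) and TMM (0.56) factors over the listed genes; both shift all genes by construction. The oca2 call was lost with a replicate block (-0.60, edgeR, adjusted p = 0.0672), and fits leaving out each pool gave -0.69 to -0.55. For mlpha these fits gave 0.73 to 0.94. It was called when p-values were adjusted over the listed genes only (0.81, edgeR, adjusted p = 0.00283), which tests fewer genes. All 1126 genes tested were called in that way, since they had been selected for differing, so this call says nothing particular about mlpha. At an adjusted p under 0.01, 433 of the listed genes were called in place of 752. Deviations of same-numbered pools had correlations of -0.248 to 0.091, so no pairing by number was seen. These values over selected genes cannot exclude one. The block gave 544 calls. The depth of the libraries over all genes was not used here.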

Other observations

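Within the mutants, the pools had the same order for pnp4b as for the transcript of the mutated gene. Mutant pools 4, 1, 2 and 3 had 1245, 1111, 970 and 902 normalized counts of iqgap1 and 41.3, 27.3, 20.8 and 15.3 of pnp4b. Of the 329 other genes called lower by edgeR, pnp4b included, 14 (4.26%) had this order of the mutant pools, out of 24 possible orders. Mutant pool 4 was the highest of its group in 28.3% of the 329. The comparison was made after the values were seen.

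The genes next to aox5 include hatching enzyme genes, and 2 of its 10 nearest protein-coding neighbours in the RefSeq order (GRCz12tu) were in the table, with opposite directions. He1.1 and he1.2 encode proteases that hatching gland cells release to dissolve the egg envelope. Wild-type pools 1 to 4 had 1167, 1102, 845 and 755 normalized counts of he1.1, the same order as for aox5, and mutant pools 1 to 4 had 5250, 3242, 3355 and 4079, an order that differs from that of aox5. He1.1 rose 4.12-fold (log2 fold change 2.04 ± 0.20, edgeR, adjusted p = 0.000311). The neighbouring he1.2 fell from 1864 ± 237 to 1169 ± 170 (SD, n = 4 each; log2 fold change -0.67 ± 0.14, edgeR, adjusted p = 0.0249). The he1 genes are close copies of each other, so the split of reads between them is uncertain. No neighbour of pnp4b or oca2 among 10 each was listed, and 1 of mlpha was, the opsin gene tmtops2a. None of the 4 pigment cell genes lies on the chromosome of iqgap1 in that assembly. These neighbours were named after their values were seen.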
